A study of Mus musculus with 10 samples.

Results

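Ulk2 and Sqstm1, genes that act at the start of autophagy and in the choice of its cargo, were measured in the livers of 5 female mice heterozygous for Gyk and of 5 female wildtype mice (C57Bl/6J). They are 2 of 7409 genes that could be named on the array, and they were chosen because the intensities of both were higher in Gyk heterozygous liver. That contrast is therefore given for them as a description, without a test. Ulk2 has 2 probes (scl0029869.2_146-S, here the first, and scl029869.1_26-S, here the second) and Sqstm1 has 1 (scl018412.1_16-S), of 24048 probes in all. All mice were 23 weeks old and had eaten chow with 4% fat until 11 weeks of age and with 6% fat from then on. Gyk codes for glycerol kinase and lies on the X chromosome, so through X inactivation each liver cell of a heterozygous female expresses either the altered or the intact copy. The study calls the heterozygous mice transgenic, and the sources used here do not state how Gyk was altered.

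Autophagy wraps part of the cytoplasm in a double membrane and delivers it to the lysosome, and the liver relies on it during fasting to release amino acids and lipids. The kinases Ulk1 and Ulk2 form a complex with Atg13, Rb1cc1 and Atg101 that receives signals from mTORC1 and AMPK and starts the growth of the membrane. Sqstm1, also called p62, binds ubiquitin on cargo and the LC3 family of proteins on the membrane. It is itself broken down by autophagy, and it binds Keap1, the adaptor that marks the transcription factor Nrf2 for breakdown. Only RNA was measured here, which gives neither the amount of these proteins nor the rate of autophagy.

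Both genes lie on the minus strand of chromosome 11, and their promoters are shown because the intensities of both genes were higher in the same group. The 250 bases before the annotated start are given 5′ to 3′ from RefSeq, build GRCm38.p6, for Ulk2 at chr11:61855093-61855342 and for Sqstm1 at chr11:50210821-50211070. Capitals mark the matches to the motifs searched.
Ulk2: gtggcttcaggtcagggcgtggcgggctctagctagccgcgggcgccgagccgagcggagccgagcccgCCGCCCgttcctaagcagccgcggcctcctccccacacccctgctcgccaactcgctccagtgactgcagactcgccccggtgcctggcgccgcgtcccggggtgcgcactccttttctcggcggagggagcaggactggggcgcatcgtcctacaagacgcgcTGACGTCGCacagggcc
Sqstm1: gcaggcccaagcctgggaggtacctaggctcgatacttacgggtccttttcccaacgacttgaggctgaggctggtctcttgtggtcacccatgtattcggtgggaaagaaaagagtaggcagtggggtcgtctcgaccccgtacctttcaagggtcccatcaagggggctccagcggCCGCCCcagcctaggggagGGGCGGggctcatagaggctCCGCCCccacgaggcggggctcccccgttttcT
The search covered these bases and the 50 after the start, on both strands. The GC box GGGCGG was found 1 time for Ulk2, 181 bases before the start, and 3 times for Sqstm1, 72, 53 and 33 bases before it, and 35.7% of 32851 promoters of this length hold it. The core of the cyclic AMP response element, TGACGTC, began 17 bases before the Ulk2 start and was not in the Sqstm1 window, and 3.21% of promoters hold it. The same stretch of Ulk2 matched the core of the antioxidant response element, TGACNNNGC, which 12.4% of promoters hold, so these matches overlap and are not separate. The letters TATAAA began 1 base before the Sqstm1 start and ran on into the transcribed part, and 13.6% of promoters hold them. CCAAT (37.4% of promoters), CACGTG, the core of the element that the lysosomal factor TFEB binds (7.15%), and the forkhead motif TGTTTAC (3.65%) were found in neither window. The windows were rich in G and C, 72.8% for Ulk2 and 63.2% for Sqstm1, where the median promoter had 52.4%.

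Gyk itself, the altered gene, had an intensity of 400.1, 234.7, 271.8, 259 and 432.9 in heterozygous livers 1 to 5 and of 914.2, 437.1, 579.7, 416.3 and 446 in wildtype livers 1 to 5 (probe scl0014933.2_154-S). Its log2 difference was -0.65 with an SE of 0.19 and a limma adjusted p of 0.332. The deposited intensities overlapped. The normalized groups did not, by a narrow margin (9.04 in heterozygous replicate 5 against 9.05 in wildtype replicates 2 and 4). Of all kept probes 0.802% did not overlap in this direction. A second Gyk probe (scl014933.1_35-S) was too dim to keep, with 0 values above the limit of the filter in either group. With the number that opens the sample titles as a block, the log2 difference of Gyk was -0.84 (limma adjusted p 0.909). Over the whole array limma called 0 of 10225 probes kept after a filter on dim probes at an adjusted p under 0.05 (0%), and 1221 (11.9%) had an unadjusted p under 0.05. On the first principal component, which held 51.7% of the variance of the kept probes, heterozygous replicate 1 (-36.5) and wildtype replicate 1 (-39.3) stood apart from the other 8 arrays (-7.32 to 22.1). Without both, 206 probes were called, and without wildtype replicate 1 alone 435. The labels name the mice as separate samples of each genotype, and 5 arrays a group limit the precision.

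The first Ulk2 probe separated the groups. Gyk heterozygous livers 1 to 5 (the replicates of that group) had intensities of 351.6, 323.7, 339.4, 295.3 and 374, and wildtype livers 1 to 5 had 292.9, 225.1, 255.2, 243.8 and 212.3. The lowest heterozygous value, in replicate 4, lay just above the highest wildtype value, in replicate 1, so the groups did not overlap. The means were 336.8 ± 29.6 in heterozygous and 245.9 ± 31.1 in wildtype liver (SD, n = 5 each), a ratio of 1.37. After quantile normalization the log2 values averaged 8.74 ± 0.09 and 8.42 ± 0.10 (SD, n = 5 each), a log2 difference of 0.32. All intensities are linear and background-subtracted, and 95.2 was added to each before log2, which pulls log2 differences toward 0.

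The second Ulk2 probe gave a similar mean difference with more spread in wildtype liver. Gyk heterozygous livers 1 to 5 had intensities of 302.6, 282.4, 294.9, 213.9 and 262, and wildtype livers 1 to 5 had 290.5, 190, 187.1, 136 and 128.2. Here the groups overlapped, because wildtype replicate 1 lay within the heterozygous range. The other 4 wildtype values were below every heterozygous value. The means were 271.2 ± 35.5 in heterozygous and 186.4 ± 64.8 in wildtype liver (SD, n = 5 each), a ratio of 1.46, and the log2 difference was 0.38.

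Sqstm1 had the widest spread of the 3 probes among wildtype mice on the log2 scale, with an SD of 0.48 there against 0.10 and 0.27 for the Ulk2 probes. The constant added before log2 narrows this spread more for the dimmer Ulk2 probes than for Sqstm1. For Sqstm1, heterozygous livers 1 to 5 had intensities of 3767.3, 3488.7, 2930.7, 2874.3 and 3071.7, and wildtype livers 1 to 5 had 4100.1, 2653.6, 1892, 1709.8 and 1732.3. The highest Sqstm1 value of all 10 mice was in a wildtype liver, and the other 4 wildtype values lay below the heterozygous range. The means were 3227 ± 386 in heterozygous and 2418 ± 1020 in wildtype liver (SD, n = 5 each), a ratio of 1.33. The log2 values averaged 11.72 ± 0.17 and 11.18 ± 0.48 (SD, n = 5 each), a log2 difference of 0.54. Without both arrays that stood apart, the log2 difference was 0.34 for the first Ulk2 probe, 0.47 for the second and 0.68 for Sqstm1. Of all 10225 kept probes, the normalized groups did not overlap for 0.968% in the higher and 0.802% in the lower direction, and 7.26% were higher at an unadjusted limma p under 0.05. These shares stand beside the members for scale only, since the members were chosen on this contrast.

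**Figure D1:**
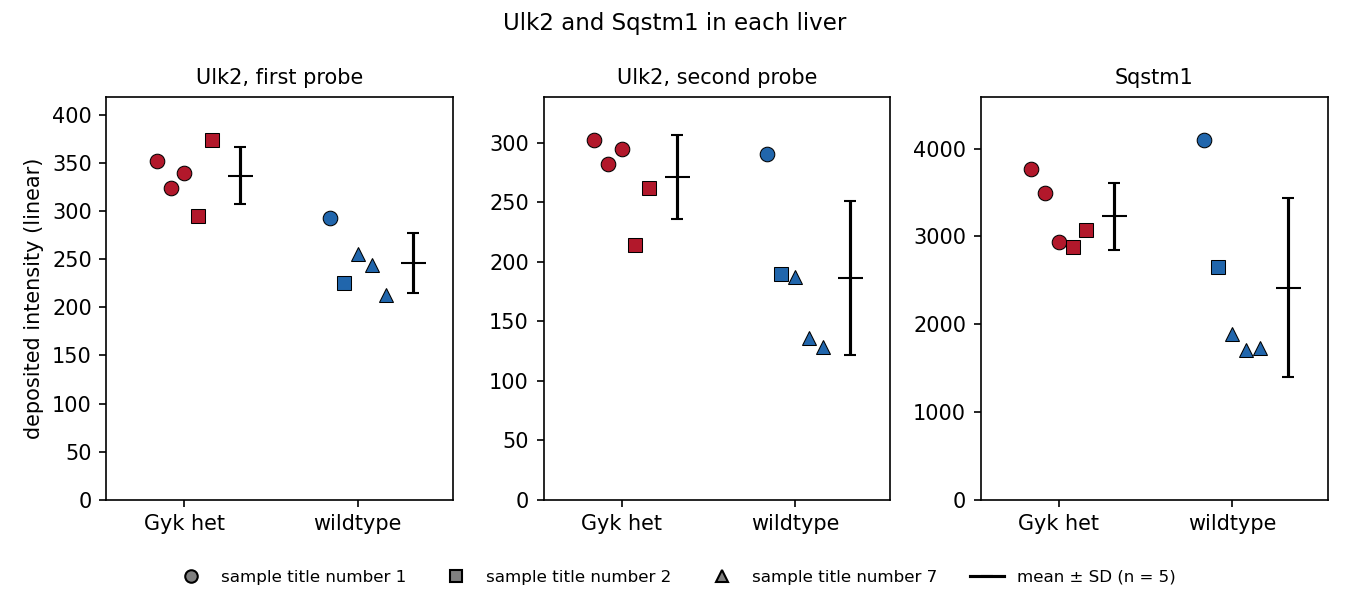
Deposited linear intensity (vertical axis) of both Ulk2 probes and of Sqstm1 in each liver, Gyk heterozygous left and wildtype right, with marker shape giving the number that opens the sample title and bars giving the mean ± SD (n = 5). Groups do not overlap for the first Ulk2 probe, while wildtype replicate 1 lies within the heterozygous range for the second and above it, at 4100.1, for Sqstm1.

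A number opens each sample title, and its meaning was not given in the labels. It was 1 or 2 in all heterozygous samples and in wildtype replicates 1 and 2, and 7 in wildtype replicates 3, 4 and 5 alone. For Sqstm1, the wildtype livers with the number 7 averaged 1778 (n = 3), and those with the numbers 1 and 2 had 4100.1 and 2653.6. Among samples with the number 1, the log2 value averaged 11.79 in heterozygous liver (n = 3) and was 11.93 in wildtype liver (n = 1), a difference of -0.14. Among samples with the number 2 it averaged 11.62 in heterozygous liver (n = 2) and was 11.38 in wildtype liver (n = 1), a difference of 0.23. With the number included as a block the log2 difference of Sqstm1 was 0.04, against 0.54 without it. The block value combines the -0.14 and the 0.23. The -0.14 rests on wildtype replicate 1, which had the highest Sqstm1 value. That array stood apart on the first principal component, as did heterozygous replicate 1. The wildtype samples with the number 7 had the lowest Sqstm1 values of all mice. For those samples genotype and title number cannot be told apart.

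The first Ulk2 probe also differed within the title numbers. The log2 difference was 0.23 among samples with the number 1 and 0.40 among those with the number 2, and 0.31 with the number as a block. The wildtype livers with the number 7 averaged 237.1 (n = 3), between the 292.9 and 225.1 of the other wildtype livers. The second Ulk2 probe lay between the other probes, with log2 differences of 0.07 and 0.21 within the numbers 1 and 2 and of 0.14 with the block. Each of these comparisons within a number rests on 1 wildtype liver.

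**Figure D2:**
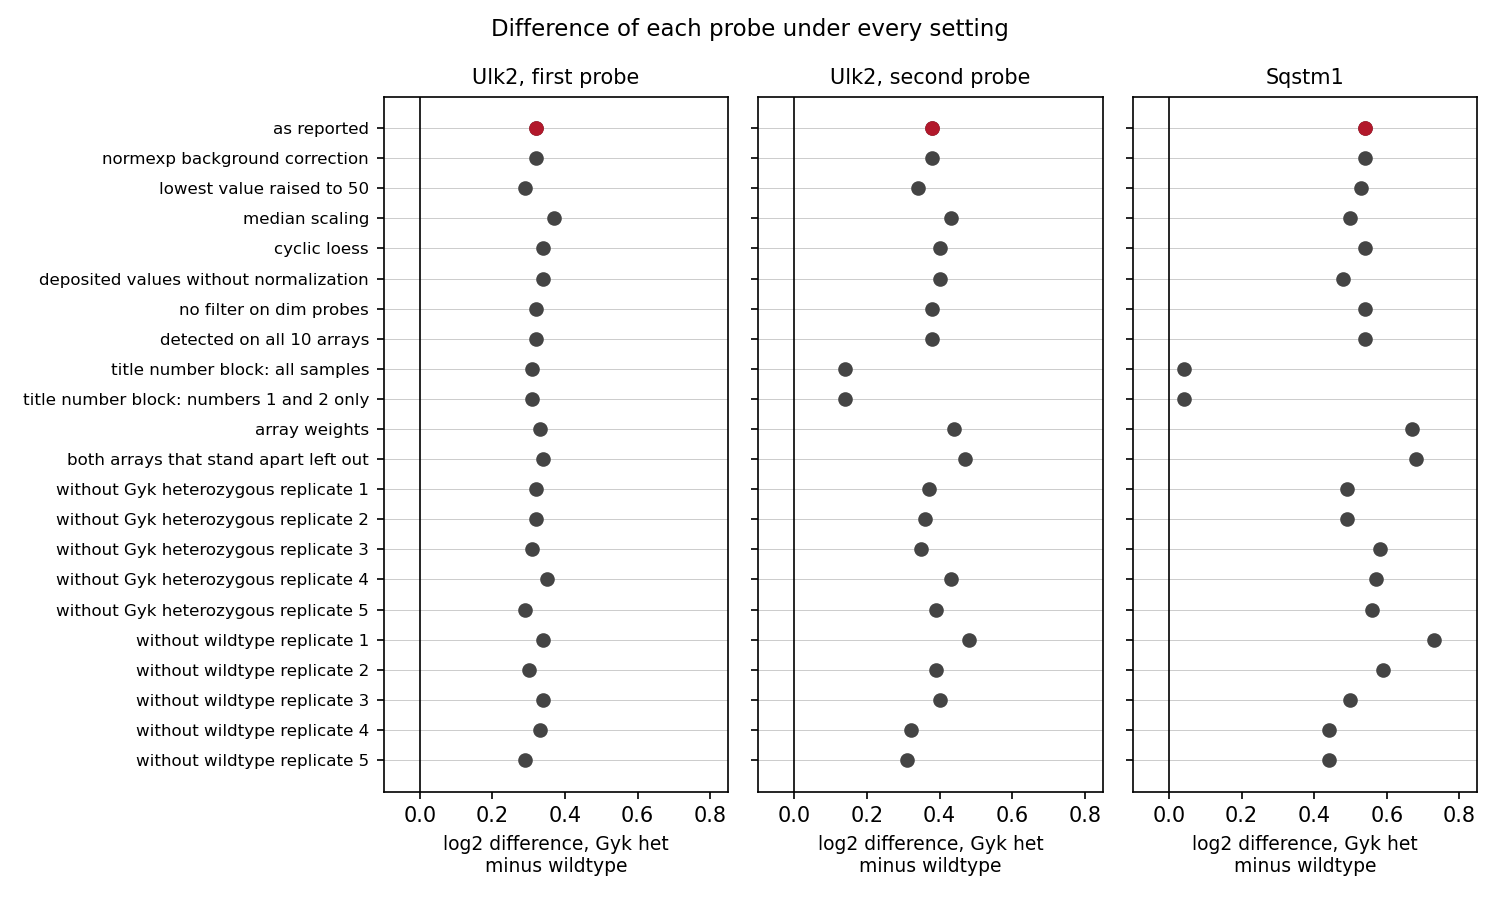
Log2 difference, Gyk heterozygous minus wildtype (horizontal axis), of both Ulk2 probes and of Sqstm1 under the reported setting (red) and 21 alternatives (grey, one per line). The first Ulk2 probe stays between 0.29 and 0.37, while the second reaches 0.14 and Sqstm1 0.04 with the title number included as a block.

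Spread among mice of 1 genotype was not used to choose the genes, so their values were also compared after removing each group's mean. The first Ulk2 probe and Sqstm1 had r = 0.25 (exact permutation p = 0.587 within groups, n = 10) and Spearman's rho 0.10 (exact permutation p = 0.797). The second Ulk2 probe and Sqstm1 had r = 0.85 (exact permutation p = 0.0116, two-sided, n = 10), with 0.0348 after adjustment over the 3 relations computed. Its rho was 0.61 (exact permutation p = 0.147, adjusted 0.434). That r removes genotype but not the title number, with which both probes moved in wildtype liver. With genotype and title number both removed, which leaves 8 mice in 3 sets, r was 0.35 (exact permutation p = 0.403, adjusted 0.604) and rho 0.45 (exact permutation p = 0.361), so the relation did not pass the threshold within the numbers. Without the 2 mice farthest from the median of the Ulk2 probe, wildtype replicates 1 and 5, r was 0.56 (exact permutation p = 0.249, n = 8), no longer past the threshold, over a narrower range of values. Without the 2 arrays that stood apart it was 0.64 (exact permutation p = 0.128, n = 8). The Ulk2 probes had r = 0.55 with each other (exact permutation p = 0.145, adjusted 0.217, n = 10) and rho 0.41 (exact permutation p = 0.289, adjusted 0.434). Without the 2 mice farthest from the median of the first Ulk2 probe, heterozygous replicate 4 and wildtype replicate 5, r was -0.08 with Sqstm1 (exact permutation p = 0.899) and 0.13 with the second Ulk2 probe (exact permutation p = 0.764). Without the 2 arrays that stood apart, r of the first Ulk2 probe with Sqstm1 was -0.13 (exact permutation p = 0.797, n = 8). With genotype and title number both removed, the first Ulk2 probe had r = 0.15 with Sqstm1 (exact permutation p = 0.778, n = 8) and 0.77 with the second Ulk2 probe (exact permutation p = 0.194, adjusted 0.583, n = 8). Single title numbers hold at most 4 mice, too few for an r of their own.

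The genes whose log2 values were most like each probe were taken from 3727 named genes, by the lower of Pearson's r over all 10 arrays and over the 8 that did not stand apart. The groups differ in these values, so a shared group difference adds to r. A shared difference between title numbers, with which Sqstm1 and the second Ulk2 probe moved in wildtype liver, adds to it as well. Neither was removed here, so a high r does not show likeness among mice of the same genotype and number. For the first Ulk2 probe they were Sh3glb1 (0.92 over 10 arrays and 0.94 over 8), F8a (0.90 and 0.90), Sik3 (0.89 and 0.88), Cyp2b9 (0.87 and 0.90) and Ccdc25 (0.87 and 0.86). Sh3glb1, which bends membranes and joins the Becn1 complex through Uvrag, is the only one of these 5 on the autophagy lists. Sik3 was dim, with means of 35.54 in heterozygous and 14.74 in wildtype liver. It was above the limit of the filter in 5 heterozygous and 0 wildtype livers. Sik3 was thus kept only through the group where it was high, so its likeness to a probe chosen as higher there was partly built in. For the second Ulk2 probe they were the cytochrome P450 gene Cyp2b9 (0.98 and 0.98), Hbs1l, Slirp, the mitochondrial chaperone gene Hspd1 and Tmx1 (0.96 each over 10 arrays, and 0.96 to 0.98 over 8). For Sqstm1 they were 4933434E20Rik (0.99 and 0.99), the proteasome activator gene Psme4 (0.99 and 0.99), the glycolytic gene Pgk1 (0.98 and 0.98), Ccnq (0.97 and 0.98) and the mitochondrial ribosome gene Mrps16 (0.96 and 0.97). Within these lists of 5, Cyp2b9 was shared by both Ulk2 probes, and no gene was shared by Ulk2 and Sqstm1. Lists this short cannot show whether Ulk2 and Sqstm1 share genes further down.

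The other genes of autophagy, its upstream signals, the lysosome and the pathways that Sqstm1 joins were followed in 12 lists of 205 genes without Ulk2 and Sqstm1. Of these, 84 had a named probe and 64 were kept, with the brightest kept probe taken for each gene. At an adjusted p under 0.05 limma called 0 of the 64. At an unadjusted p under 0.05 there were 7 higher (10.9%) and 2 lower (3.12%) in heterozygous liver, against 7.26% and 4.68% of all kept probes. With the brightest probe of each kept named gene, the shares were 6.76% and 5.02%. The median log2 difference of the 64 genes was 0.02, and that of all kept probes was -0.01. The median lay near that of the whole array. Of the 64, 37 had a log2 difference above 0 and 27 below, where 45.4% of all kept named genes were above 0. In the 7 lists of the autophagy machinery itself, 19 of 68 genes were kept, 3 of them (15.8%) were higher at an unadjusted p under 0.05 and 0 lower, and the median was -0.04. With the title number included as a block 2 of the 64 (3.12%) had an unadjusted p under 0.05, Sh3glb1 and Srxn1, against 4.95% of all kept probes. Without wildtype replicate 1 there were 18 (28.1%) against 23% of all kept probes, without wildtype replicate 2 there were 14 (21.9%) against 14%, and without both arrays that stood apart 17 (26.6%) against 20.7%. Without wildtype replicates 4 or 5 there were 5 each (7.81%), against 7.3% and 7.42%.

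In the Ulk complex, Atg13, the subunit that links the kinases to Rb1cc1, had an intensity of 298.8, 353.8, 372.1, 338.7 and 299.6 in heterozygous livers 1 to 5 and of 348.5, 274.4, 229.4, 240.6 and 209.2 in wildtype livers 1 to 5. Wildtype replicate 1 lay within the heterozygous range and the other 4 below it. The log2 difference of Atg13 was 0.25 with an SE of 0.10 (limma adjusted p 0.373), and 0.09 with the title number included as a block. Atg101, which stabilizes Atg13, averaged 1440 ± 152 in heterozygous and 1529 ± 177 in wildtype liver (SD, n = 5 each), a log2 difference of -0.05 with a 95% confidence interval of -0.27 to 0.18. Rb1cc1, the scaffold of the complex, had a probe that did not pass the filter, and Ulk1 and Ulk3 had no named probe.

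Sh3glb1 was the only gene of the 64 with an unadjusted p under 0.05 in all 22 settings, the reported setting included. Its intensity was 143.5, 121.6, 133, 112.8 and 137.5 in heterozygous livers 1 to 5 and 110.3, 86.9, 80, 103.3 and 83.1 in wildtype livers 1 to 5. The groups did not overlap, by a narrow margin between heterozygous replicate 4 and wildtype replicate 1. The normalized groups did not overlap either, as for 0.968% of all kept probes in this direction. The log2 difference was 0.26 with an SE of 0.07, and it was also 0.26 with the title number included as a block. Its limma adjusted p was 0.332 and ranged from 0.0403, with array weights, to 0.913 over the alternatives. Becn1, the core of the lipid kinase complex that marks the growing membrane, averaged 1506 ± 84.1 in heterozygous and 1548 ± 108 in wildtype liver (SD, n = 5 each). Its log2 difference was 0.01, with a 95% confidence interval of -0.16 to 0.18. Vmp1, a membrane protein of the endoplasmic reticulum needed for the growing membrane, had a log2 difference of -0.09 on its brighter and 0.18 on its dimmer probe, neither past the threshold (limma adjusted p 0.801 and 0.549).

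Among the genes that build the membrane, Atg2b, a lipid transfer protein, had a log2 difference of 0.07, and the phosphoinositide readers Wdr45, Wdr45b and Wipi2 had 0.02, 0.06 and -0.10 (limma adjusted p 0.764 to 0.979 for the 4 genes). Wdr45b varied widely, with an SE of 0.45. Atg12, the ubiquitin-like protein that is joined to Atg5, had an intensity of 1047.2, 1038.2, 949.9, 952.8 and 1001 in heterozygous livers 1 to 5 and 1049.4, 869.6, 889.1, 695.3 and 682.6 in wildtype livers 1 to 5. The pattern resembled that of the second Ulk2 probe, with wildtype replicate 1 as high as the highest heterozygous livers. The log2 difference of Atg12 was 0.26 with an SE of 0.11 (limma adjusted p 0.373), and 0.09 with the title number included as a block. Atg16l2 and the protease gene Atg4d had -0.14 and -0.06. Atg4d was dim, above the limit of the filter in 3 heterozygous and 4 wildtype livers.

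Map1lc3b, the LC3 protein that Sqstm1 binds and that marks finished autophagosomes, had an intensity of 2304.7, 1614.5, 1759.7, 1765.1 and 1639.6 in heterozygous livers 1 to 5 and 1945.3, 1584.2, 1695.5, 2200.8 and 2132.3 in wildtype livers 1 to 5. The groups overlapped over nearly their whole range. The log2 difference was -0.04 with a 95% confidence interval of -0.30 to 0.22. The 3 other cargo receptors that were kept had log2 differences below 0, opposite in sign to Sqstm1. Retreg1, a receptor for the endoplasmic reticulum, had -0.37 (limma adjusted p 0.519), Tollip -0.17 (0.431) and Calcoco1 -0.07 (0.905). Retreg1 averaged 3401 ± 651 in heterozygous and 4664 ± 1330 in wildtype liver (SD, n = 5 each), with overlapping groups. Its log2 value was 12.4, 12.45 and 12.58 in the wildtype livers with title number 7, above every other liver. Wildtype replicates 1 and 2 (11.49 and 11.83) lay within the heterozygous range of 11.39 to 12.03. Calcoco1 was also highest with number 7 (8.04 to 8.19). It was 7.36 and 7.81 in wildtype replicates 1 and 2, against 7.42 to 7.98 in heterozygous liver. The sign of Retreg1 and Calcoco1 thus rested on the wildtype livers with number 7. Of the genes for fusion with the lysosome, Rab7 had a log2 difference of 0.17 on its brightest probe (-0.12 and -0.05 on its other probes), Stx17 0.08 and Vps18 -0.11.

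Upstream of the Ulk kinases, Akt1s1, also called PRAS40, a subunit that restrains mTORC1, was the gene on the lists furthest below 0. Its intensity was 1150.4, 1108.9, 1118.4, 1124.4 and 1195.9 in heterozygous livers 1 to 5 and 1303, 1642.9, 1352.3, 2129.3 and 1593.2 in wildtype livers 1 to 5. The heterozygous livers lay close together, and all of them were below every wildtype liver. The normalized groups did not overlap either, as for 0.802% of all kept probes in this direction. The log2 difference was -0.40 with an SE of 0.12 and a limma adjusted p of 0.332, and -0.25 with the title number included as a block. Its adjusted p ranged from 0.0403 (without wildtype replicate 1) to 0.913 over the alternatives. Rragc, a GTPase that holds mTORC1 at the lysosome, had a log2 difference of 0.22 (limma adjusted p 0.349), and 0.13 with the block. The normalized groups of Rragc did not overlap (0.968% of all kept probes in this direction), while its deposited intensities did. Lamtor1 and Lamtor5, of the anchor for these GTPases, had log2 differences of 0.08 and 0.17, and Nprl3 0.01.

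**Figure D3:**
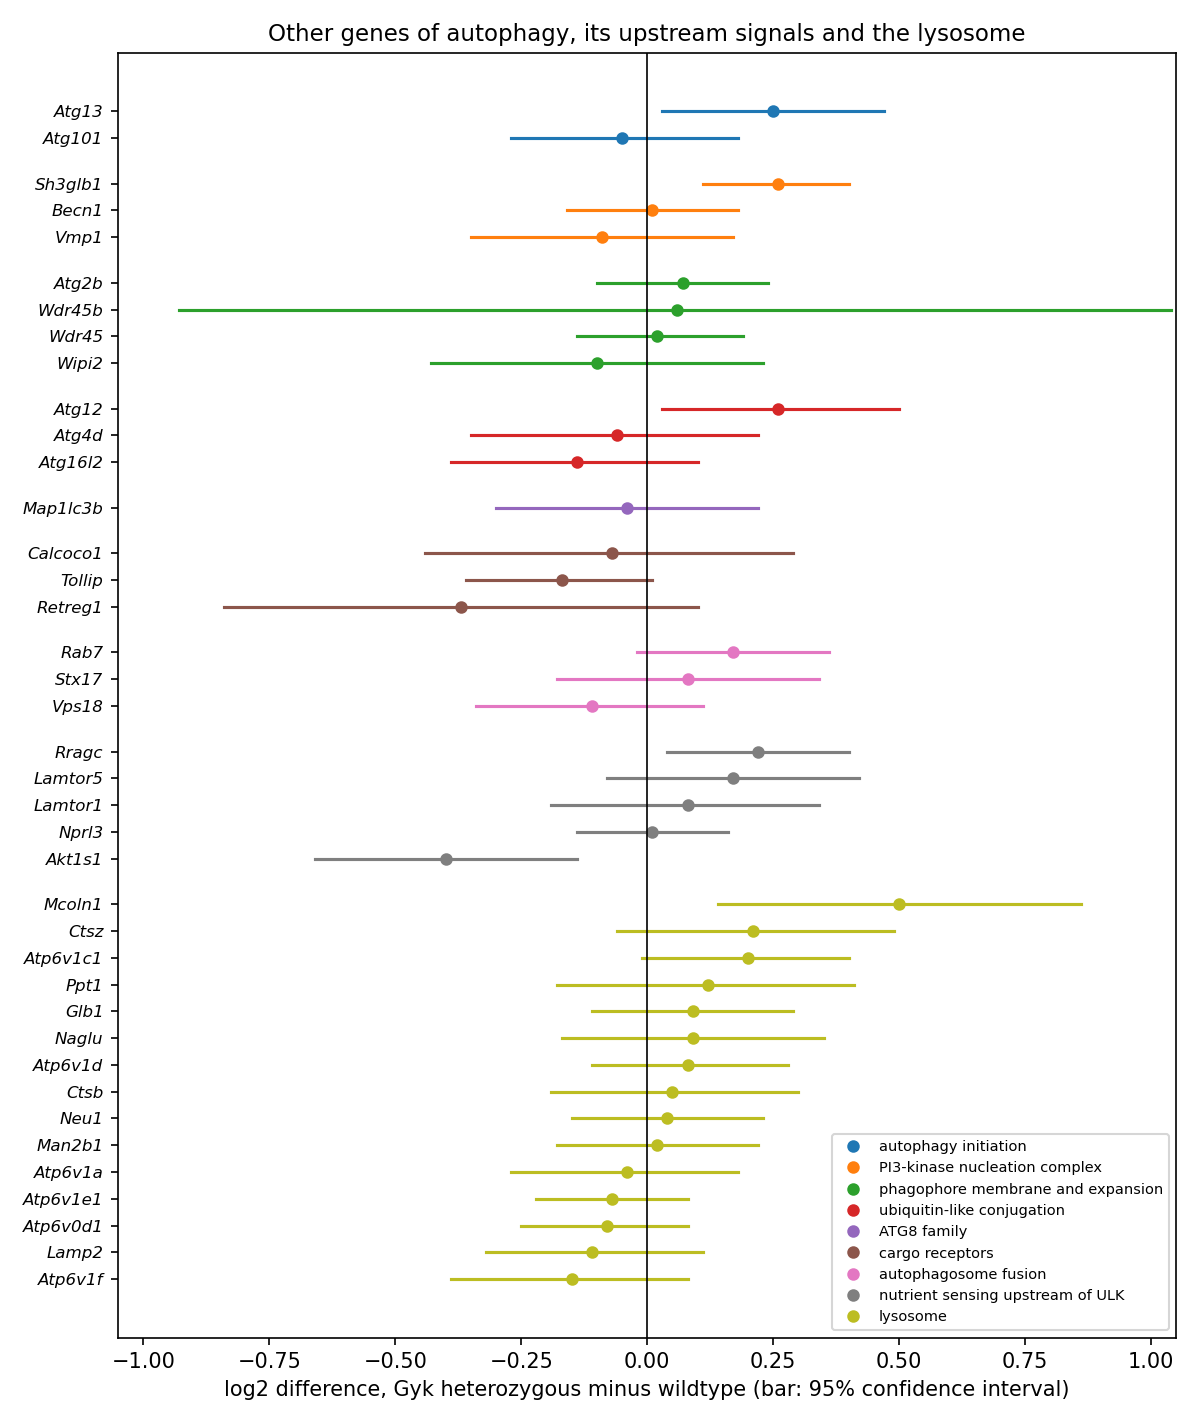
Log2 difference, Gyk heterozygous minus wildtype (horizontal axis), with its 95% confidence interval from limma, for each kept gene of the autophagy, upstream and lysosome lists without Ulk2 and Sqstm1, coloured by list. The intervals of Atg13, Sh3glb1, Atg12, Rragc and Mcoln1 lie above 0 and that of Akt1s1 below 0, before any adjustment for the number of probes tested.

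In the lysosome list 15 genes were kept, with a median log2 difference of 0.05. Mcoln1, a calcium channel of the lysosomal membrane, was the 1 gene with an unadjusted p under 0.05. That is 6.67% of the list in the higher direction, against 7.26% of all kept probes. The intensity of Mcoln1 was 353.5, 348, 486.3, 529.9 and 537.5 in heterozygous livers 1 to 5 and 337.5, 372.6, 300.7, 169.6 and 258.3 in wildtype livers 1 to 5. Heterozygous replicates 1 and 2 lay below wildtype replicate 2, so the groups overlapped. The log2 difference was 0.50 with an SE of 0.16 (limma adjusted p 0.332), and 0.32 with the title number included as a block. The proteases Ctsb and Ctsz had 0.05 and 0.21, the membrane protein Lamp2 -0.11, and the 6 subunits of the proton pump between -0.15 and 0.20.

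Genes of the Keap1 and Nrf2 pathway, which Sqstm1 joins by binding Keap1, had a median log2 difference of -0.08 over 14 kept genes. At an unadjusted p under 0.05, 1 was higher and 1 lower (7.14% each), against 7.26% and 4.68% of all kept probes. Cul3, the scaffold of the ubiquitin ligase in which Keap1 works, had an intensity of 1954, 2186.1, 2412.5, 2026.1 and 2065.5 in heterozygous livers 1 to 5 and 1804.4, 1909.1, 1906.5, 1470.2 and 1847.9 in wildtype livers 1 to 5. Every deposited heterozygous value was above every wildtype value, but after normalization heterozygous replicate 1 (11.01) lay just under wildtype replicate 3 (11.02). The log2 difference of Cul3 was 0.28 with an SE of 0.09 (limma adjusted p 0.332), and 0.25 with the block. Mafg, a small Maf partner of Nrf2, averaged 874.9 ± 152 in heterozygous and 1205 ± 269 in wildtype liver (SD, n = 5 each), a log2 difference of -0.39 (limma adjusted p 0.349), and -0.22 with the block. The kept Nrf2 targets lay on both sides of 0. Fth1 (0.56 with an SE of 0.84) and Abcc2 (0.30 with an SE of 0.38) varied widely among mice. The others were Gclm (0.03), Prdx1 (0.04), Pgd (-0.09), Taldo1 (-0.19), Gstm1 (-0.22), Srxn1 (-0.23 on its brightest of 3 probes), Tkt (-0.25), Gstm3 (-0.29) and Ftl1 (-0.05), and limma adjusted p for all 11 was 0.422 to 0.966. Keap1, Nfe2l2 and Nqo1 had no named probe. Whether the Gstm1 probe also reads its near relatives was not tested.

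**Figure D4:**
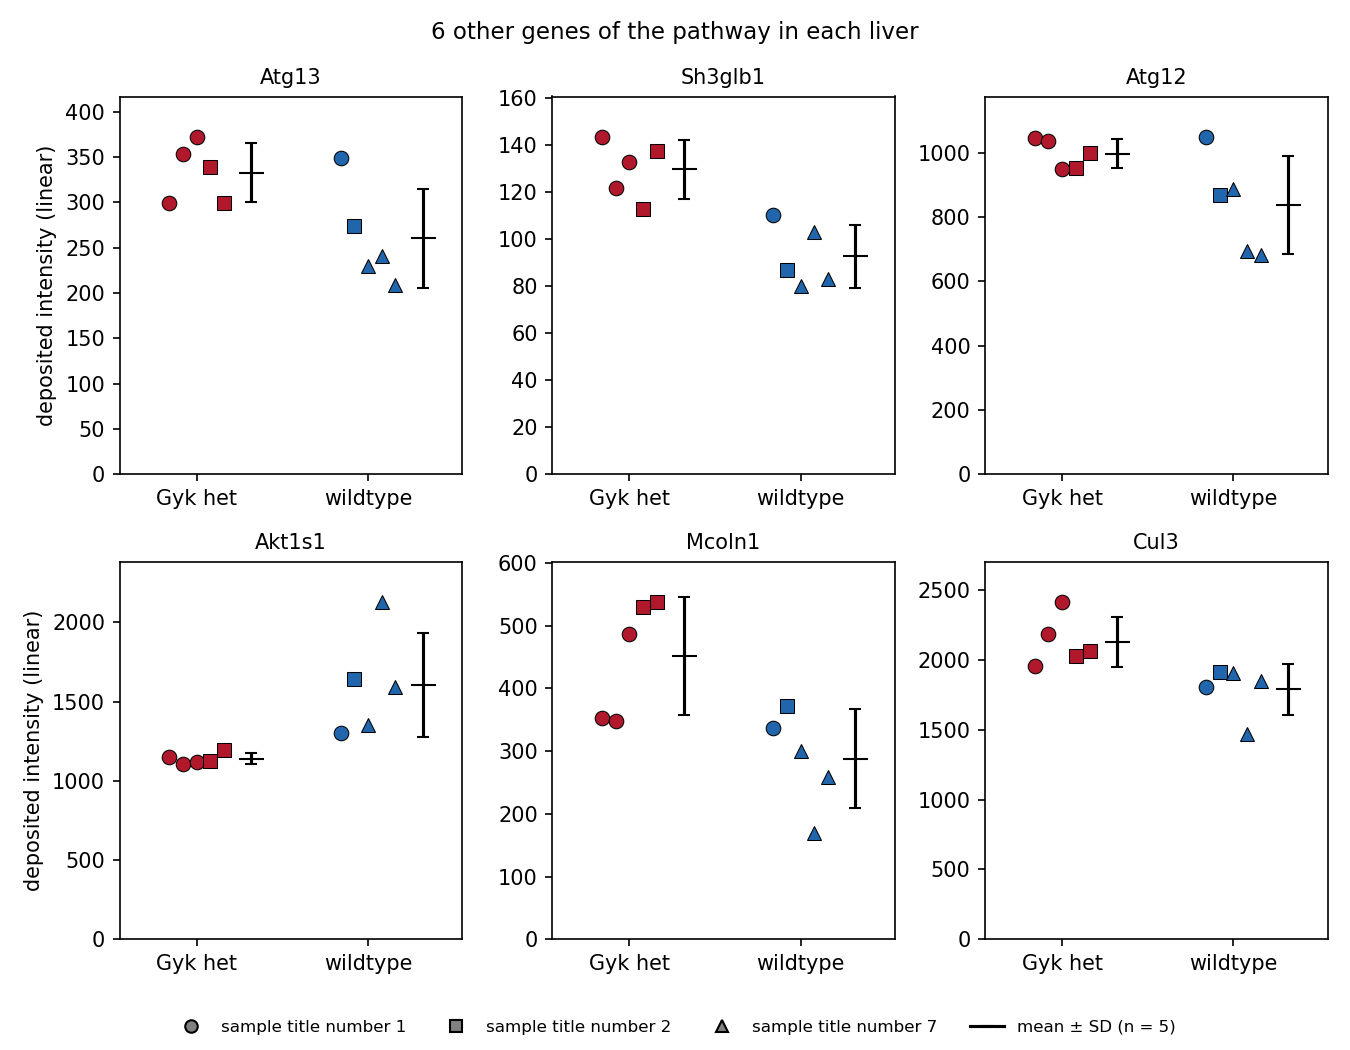
Deposited linear intensity (vertical axis) of Atg13, Sh3glb1, Atg12, Akt1s1, Mcoln1 and Cul3 in each liver, Gyk heterozygous left and wildtype right, with marker shape giving the title number and bars the mean ± SD (n = 5). Groups do not overlap on this scale for Sh3glb1, Akt1s1 and Cul3, though Cul3 overlaps after normalization. Wildtype replicate 1 lies within or above the heterozygous range for Atg13 and Atg12.

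The kept signalling partners of Sqstm1, Casp8, Prkcz, Traf6, Ikbkb, Ripk1 and Ikbkg, had log2 differences of -0.19 to 0.12. Of the 6, 0 had an unadjusted p under 0.05, against 11.9% of all kept probes. Ubb, which codes for a chain of the ubiquitin that Sqstm1 binds, had 0.01, with a 95% confidence interval of -0.30 to 0.33. Rps27a, a ubiquitin joined to a ribosomal protein, had 0.33 (limma adjusted p 0.378), and 0.06 with the title number included as a block. Vcp, the ATPase that pulls ubiquitin-marked proteins apart, had 0.04.

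Sqstm1 is also expressed in macrophages, and in whole liver more cells of a type and more RNA per cell cannot be told apart. The 3 hepatocyte markers with a probe, Apoa1, Apoa2 and Apoc3, were among the brightest probes, and their deposited intensities had ratios of 0.872, 0.907 and 0.868, heterozygous over wildtype. Their summed intensity was 116902 to 153724 in heterozygous and 145055 to 165467 in wildtype livers. Their log2 differences of -0.01 to 0.05 carry little information, because quantile normalization sets the brightest ranks equal on every array. All 4 kept Kupffer cell markers of 10 listed had log2 differences above 0, with a median of 0.27 and 1, Csf1r (0.41, limma adjusted p 0.339), at an unadjusted p under 0.05. The summed intensity of these 4 was 1223 to 2452 in heterozygous and 966 to 2667 in wildtype livers, so the groups overlapped. Wildtype replicate 2 had the highest log2 value of all livers for C1qa (10.5) and Cd68 (7.6). The highest values of C1qb (10.16, replicate 4) and Csf1r (8.55, replicate 1) were in heterozygous livers. Cd68 was dim, above the limit of the filter in 4 heterozygous and 2 wildtype livers. The median log2 differences were 0.08 for 3 endothelial, -0.24 for 3 stellate cell and -0.31 for 3 erythroid and neutrophil markers. That last median was set by the globin genes Hba-a1 (-0.33) and Hbb-b1 (-0.31), while S100a9, the 1 kept neutrophil marker, had 0.21 (limma adjusted p 0.419). The 1 kept marker each of bile duct cells (Spp1) and lymphocytes (Cd3e) had -0.11 and 0.19. Of the stellate cell markers Dcn was lower at an unadjusted p under 0.05 (log2 difference -0.30, limma adjusted p 0.394). Its direction differed between the title numbers. With the number 1 the log2 value of Dcn was 12.93 in wildtype and 12.94 to 13.28 in heterozygous liver. With the number 2 it was 13.46 in wildtype and 12.99 and 13.16 in heterozygous liver. The summed intensity of the endothelial markers was 4308 to 6047 in heterozygous and 4594 to 5762 in wildtype livers. That of the stellate cell markers was 11418 to 13323 in heterozygous and 12239 to 18143 in wildtype livers, and that of the erythroid and neutrophil markers was 7227 to 12796 in heterozygous and 7930 to 31997 in wildtype livers. Col1a1, Col1a2, Col3a1, Krt19, Mpo and Ptprc did not pass the filter. The part of these cells in the values of Ulk2 and Sqstm1 was not tested.

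By position, Sqstm1 and Ulk2 lie on chromosome 11 with 37 kept named genes between them. Of those 37, 1 was higher (2.7%) and 3 were lower (8.11%) at an unadjusted p under 0.05, against 7.26% and 4.68% of all kept probes. They were Mgat4b (0.39) and Iba57, Tom1l2 and Drg2 (-0.25, -0.32 and -0.21), with limma adjusted p of 0.332 to 0.402. Of the 307 kept named genes of chromosome 11 other than Ulk2 and Sqstm1, 22 (7.17%) were higher and 14 (4.56%) lower, close to the 7.26% and 4.68% of all kept probes.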

How the data were processed

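Liver RNA was measured on 1 Illumina bead array per mouse. The deposited values are linear intensity made with BeadStudio 1.5.1.3, per the submitters' processing notes. On each array 31.1% to 33.1% of values were negative, which a background subtraction leaves, and whether arrays were normalized to each other is not given in the sources used here. A table of 80 un-normalized columns, named by chip position, was not used because the labels do not say which sample a position held.

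To make the lowest value 16, 95.2 was added to all of them before log2 and quantile normalization. Probes above 1.64 times the root mean square of an array's negative values on at least 5 of 10 arrays were kept (10225), a filter chosen after seeing the values. Groups were compared with limma 3.58.1 in R 4.3.3 (two-sided, Benjamini-Hochberg over all kept probes, threshold 0.05), which was tested on simulated data.

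Genes were named by the number inside a probe's identifier, an inference: of 9523 probes 93.3% matched a gene of GRCm38.p6, against 45.6% for numbers shifted by 3. The members and gene lists were chosen with earlier results of these data known. Genes named were Gyk, the members, up to 4 per list with the smallest p (all kept ones in the lists of the autophagy machinery), and 5 per probe by likeness. Genes between Sqstm1 and Ulk2, Keap1-Nrf2 and lysosome genes beyond 4 per list, and cell type markers were chosen after their values were seen. Replicate numbers follow the order of the labels and pair no samples. Alternatives were other background, constant, scaling and filter settings, the title number as a block, array weights, and leaving out samples.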

Additional observations from a re-analysis of the deposited data

Results flagged for a closer look

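Of 86 sets of 5 values tested (43 genes or probes in each genotype), 5 held a value far from the other 4, where chance gives about 1 in 20. None was of Ulk2, Sqstm1 or Gyk. On the log2 scale, Gyk heterozygous replicate 1 was low for Wipi2 (9.16, the nearest other heterozygous value being 9.69), Wdr45b (9.06, nearest 10.36) and Calcoco1 (7.42, nearest 7.85). Wildtype replicate 1 was low for Vps18 (9.70, nearest 10.10), and wildtype replicate 2 for Atg4d (6.62, nearest 7.08). That Atg4d value was an intensity of 3.5, below the limit of the filter. Both replicates numbered 1 are the arrays that stood apart on the first principal component.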

How the results depend on the processing

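Over 21 alternatives the log2 difference of the first Ulk2 probe was 0.29 to 0.37. The leading title number used as a replicate block (also within the numbers 1 and 2) gave 0.14 for the second Ulk2 probe and 0.04 for Sqstm1, which were otherwise 0.31 to 0.48 and 0.44 to 0.73. No paired analysis was possible because replicate numbers only follow the labels' order. Called probes over the whole array were 0, but 410 with array weights (Sh3glb1 and Akt1s1 among them), 206 without both arrays that stood apart and 435 without wildtype replicate 1. Leaving out 1 mouse gave 0 to 435. The count of list genes at an unadjusted p under 0.05 was 9, but 2 with the replicate block, 3 within the numbers 1 and 2 (Akt1s1, Sh3glb1 and Srxn1), 22 with array weights and 17 without both arrays, and 5 to 18 when 1 mouse was left out. The correlation of the first Ulk2 probe with Sqstm1 (0.25) was -0.13 without wildtype replicate 1 and -0.13 without both arrays, -0.13 to 0.37 when 1 mouse was left out, and at most 0.59 (cyclic loess). Centred by genotype and title number (a replicate block chosen after seeing the data) it was 0.15. It was not run with array weights or the block over all samples. The log2 difference of Gyk was -0.84 to -0.50, with an adjusted p of 0.0509 to 0.913. The cause of these shifts was not tested. Dim probes such as that of Sh3glb1 are held toward 0 by the added constant.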
